A study of Mus musculus with 3 samples.

Results

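Solute carriers are the membrane proteins, named Slc with a family number, that move amino acids, sugars, ions, vitamins, metals and metabolites across the plasma membrane and the membranes of organelles. They were described here in single cells of mouse blastocysts. A member was a gene whose symbol starts with Slc and a digit and whose level, averaged over the cells of each library and then over 3 libraries, was at least 5 CPM, that is, counts scaled to a common total per cell. Slc9a3r1 and Slc9a3r2, which are scaffold proteins, and Slc2a1 and Slc2a3 were not eligible. Of 369 Slc symbols left, 199 passed, among 23154 genes listed and 10183 genes at the same level or above. The level chose the members, so levels are given as a description with no test. The symbol alone also brought in Slc7a6os, a gene on the strand opposite Slc7a6, and Slc4a1ap, an adaptor protein, neither of which is a carrier by name.

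The cells came from embryos of the Klf2-H2BmCherry line, in which a red nuclear reporter is carried at the Klf2 locus. Embryos were collected at embryonic day 2.5, cultured in KSOMaa medium both at rest and on a shaker, and taken apart as mCherry-positive blastocysts at embryonic day 3.5, when single cells were picked by mouth pipette. All 3 libraries of 96 barcodes, called replicates 1 to 3, form 1 group. The labels do not say which cells were shaken, so culture conditions were not compared, and the comparison made was between cell classes within the libraries. The labels name no separate litter, animal or culture for each library, so the p-values describe how these 3 libraries vary, and that variation may be technical.

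The blastocyst has an outer epithelium, the trophectoderm (TE), which takes up nutrients from the surroundings and pumps sodium inward so that water follows and the cavity fills. Carriers on its outer face feed the inner cell mass (ICM), which will form the embryo proper and the yolk sac lining. Uptake of amino acids by the trophectoderm is known to be needed before mouse blastocysts can implant.

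Barcodes with counts in 2000 or more genes were kept as cells, 225 of 288. Totals ran between 27610866 and 54444536 counts per library. The same set of 96 barcode names is used in every library. Clustering on 54 marker genes, none of them an Slc gene, gave 66 TE-like cells (23, 16 and 27 in replicates 1, 2 and 3) and 90 ICM-like cells (32, 24 and 34). A further 69 cells stayed unnamed, 50 of them in a cluster whose median relative depth was 0.276. The other 19 formed a cluster at a median relative depth of 0.874, with 16 of its cells in replicate 1. All unnamed cells entered the levels that chose the members. The summed level of the 18 TE markers was 6446, 9360 and 9887 CPM in TE-like cells, against 676, 1028 and 898 CPM in ICM-like cells. The 10 epiblast markers summed to 288, 235 and 215 CPM in TE-like cells, against 992, 1653 and 1012 CPM in ICM-like cells. The 6 ICM markers summed to 955, 571 and 636 CPM in TE-like cells, against 1616, 931 and 1065 CPM in ICM-like cells. Of these 6, 3 were lower in TE-like cells of every library, and Sox2 was listed at 0 in every kept cell. Sall4 went the other way in replicate 1, at 286 against 124 CPM. All 10 epiblast markers were lower in TE-like cells of every library. Of the 18 TE markers, 14 were higher in every library and 1, Hand1, was lower. Replicate 2 stood apart in its share of ribosomal protein counts, which was 17.8%, 5.26% and 14.8% in replicates 1, 2 and 3. By number, the 96 barcodes of a library form 3 sets of 32, and the labels give these sets no meaning. The classes were uneven over them. Set 3 of replicate 3 held 1 TE-like and 19 ICM-like cells. Set 3 of replicate 2 held 1 and 5, and set 2 of replicate 1 held 1 and 6.

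The windows before the start are shown for the 3 called members with the largest fold between the classes, which are described further on. Each is the RefSeq window of 250 bases before the start (GRCm38.p6), written 5′ to 3′ on the gene's strand, with capitals on a match to a motif. Slc15a2 lies at chr16:36784963-36785212 on the minus strand, Slc6a13 at chr6:121300038-121300287 and Slc6a14 at chrX:21714650-21714899, both on the plus strand. The start is that of RefSeq. The GENCODE gene positions given further on begin at 121300227 for Slc6a13 and 21714896 for Slc6a14, inside these windows.
Slc15a2: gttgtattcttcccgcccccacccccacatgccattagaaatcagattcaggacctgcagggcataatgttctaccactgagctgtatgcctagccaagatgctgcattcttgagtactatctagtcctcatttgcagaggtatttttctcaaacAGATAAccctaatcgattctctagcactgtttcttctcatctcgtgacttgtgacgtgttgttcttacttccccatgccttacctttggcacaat
Slc6a13: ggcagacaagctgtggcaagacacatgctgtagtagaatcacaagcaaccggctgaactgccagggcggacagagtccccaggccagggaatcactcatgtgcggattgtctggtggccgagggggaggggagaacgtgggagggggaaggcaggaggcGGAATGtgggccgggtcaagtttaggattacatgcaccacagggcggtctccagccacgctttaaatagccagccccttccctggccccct
Slc6a14: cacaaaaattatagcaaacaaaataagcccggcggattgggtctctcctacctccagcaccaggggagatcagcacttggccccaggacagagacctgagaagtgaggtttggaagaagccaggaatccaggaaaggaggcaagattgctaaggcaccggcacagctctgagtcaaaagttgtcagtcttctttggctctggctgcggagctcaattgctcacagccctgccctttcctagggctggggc
The capitals in the Slc15a2 window are the letters AGATAA, read by GATA factors, 95 bases before the start. Those in the Slc6a13 window are GGAATG, read by TEAD factors, 91 bases before the RefSeq start, and the Slc6a14 window held no match. Of the called members described further on, 9 of 10 had a window in the table, and Slc52a3 had none. Searched on both strands, AGATAA was in 1 of these 9 windows and in 9.99% of all 32851 windows, GGAATG was in 1 of 9 and in 12.6%, and the TFAP2 motif GCCNNNGGC was in 1 of 9, that of Slc5a11, and in 13.7%. The motifs were chosen with the called members known, and a match is only a run of letters.

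Members were grouped by family number. The mitochondrial carriers, 33 members, had mean levels between 7.71 and 1356 CPM with a median of 35.5 CPM. The 34 carriers of amino acids, amines and peptides ran between 5.70 and 365 CPM, and the 40 carriers of vitamins, nucleosides, lipids and organic ions between 5.54 and 106 CPM. The 29 carriers of inorganic ions and protons lay between 5.64 and 163 CPM, the 23 metal carriers between 5.11 and 167 CPM, and the 20 carriers of sugars and monocarboxylates between 6.03 and 228 CPM. The 20 members of the nucleotide sugar family lay between 5.19 and 132 CPM. Counts come from 3′ ends and were not divided by length, so levels are not compared between genes.

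At the cutoff, the lowest members were Slc39a13 at 5.53 CPM, Slc35c1 at 5.19 CPM and Slc30a3 at 5.11 CPM. Just outside were Slc26a5 at 4.99 CPM, Slc1a7 at 4.95 CPM and Slc50a1 at 4.87 CPM. Slc1a7 had 13, 0.0693 and 1.75 CPM in replicates 1, 2 and 3, so that 1 library set its place.

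Levels varied widely between libraries. The highest library was replicate 1 for 73 members, replicate 2 for 106 and replicate 3 for 20. The median member differed 3.67-fold between its highest and lowest library, and 132 members differed by more than 3-fold. The ADP/ATP exchanger Slc25a5, which supplies ATP to the cytosol, had 1830, 831 and 1408 CPM in replicates 1, 2 and 3. The mitochondrial phosphate carrier Slc25a3 had 1120, 508 and 887 CPM. Both were lowest in replicate 2, the library with the low ribosomal protein share. The glutamate and aspartate carrier Slc1a1 had 133, 679 and 282 CPM and was highest there. Slc25a43 had 383, 8.29 and 9.09 CPM and Slc26a8 had 190, 1.14 and 12.6 CPM in replicates 1, 2 and 3. Both were among the leading genes of the unnamed cluster of 19 cells, 16 of which were in replicate 1.

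**Figure D1:**
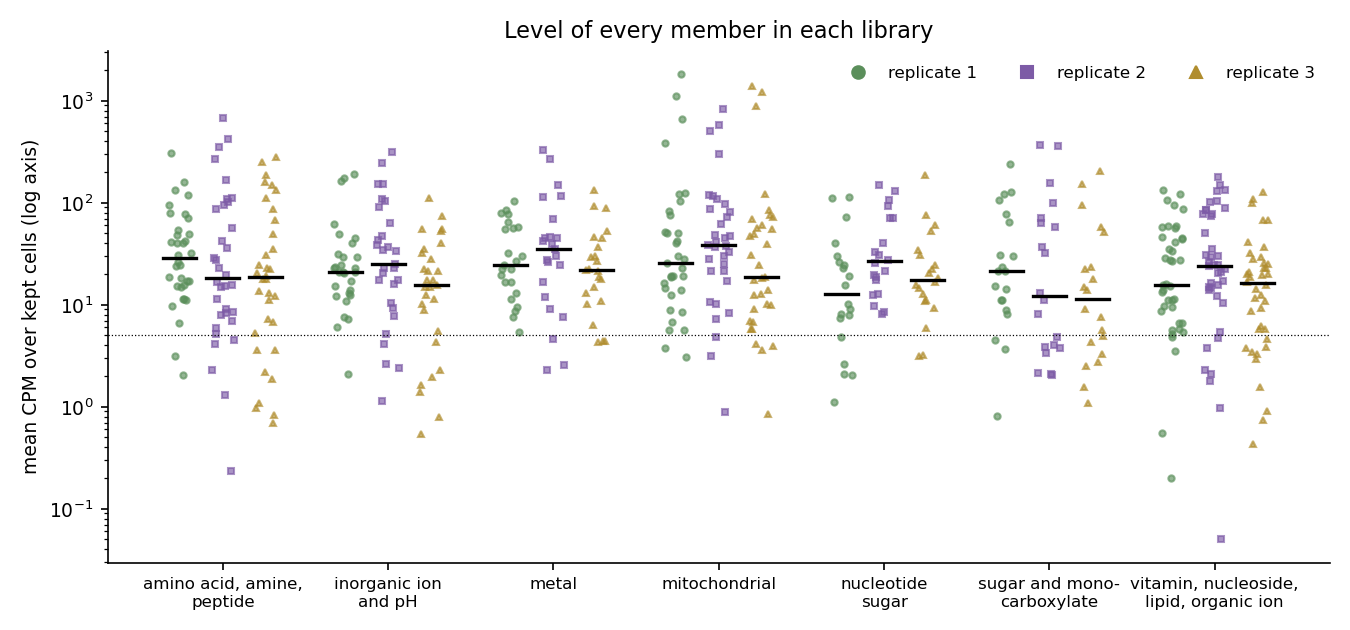
Mean CPM over kept cells (log axis) of each of the 199 members, by substrate group and library, with the median of each group as a black line and the 5 CPM cutoff dotted. The mitochondrial group holds the highest points, among them Slc25a5 at 1830 CPM in replicate 1.

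Next it was asked which members differ between TE-like and ICM-like cells. The 5 CPM cutoff took all kept cells together, so a gene could become a member through the class where it is high. Slc6a13 and Slc22a23, for example, were under 5 CPM in the ICM-like sum of every library. The choice of members is thus not independent of this contrast, and the counts of members are given with that limit. Counts were summed per library and class, giving 3 pairs of sums. Of 197 members tested, 10 rose in TE-like cells and 0 fell by the quasi-likelihood test of edgeR, adjusted by Benjamini-Hochberg over all genes at a threshold of 0.05. Among all 12141 genes tested, 1.82% rose and 0.601% fell. These genes passed the filter on low counts but did not have to reach 5 CPM, as the members did. The members that rose carry or belong to families of carriers for peptides, amino acids and amines (Slc15a2, Slc6a13, Slc6a14), folate, riboflavin, choline and organic ions (Slc46a1, Slc52a3, Slc44a4, Slc22a23), myo-inositol (Slc5a11), phosphate (Slc20a1) and ADP and ATP (Slc25a4). Slc23a3 and Slc14a2 did not pass the filter on low counts and were not tested.

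The 3 largest called differences were among peptide and amino acid carriers. Slc15a2, which brings di- and tripeptides into cells together with protons (chr16:36750177-36784962), had 74.4, 211 and 295 CPM in TE-like cells of replicates 1, 2 and 3, against 2.99, 0.910 and 5.25 CPM in ICM-like cells. Every TE-like sum lay far above every ICM-like sum. The log2 fold change was 6.01 ± 0.64 (SE), a 64.4-fold difference, with an edgeR adjusted p of 0.00967. Slc6a13, a sodium-coupled carrier of GABA and related amines (chr6:121300227-121337733), had 47.3, 77.5 and 125 CPM in TE-like cells, against 2.89, 1.91 and 4.06 CPM in ICM-like cells. Again the classes did not overlap, and the log2 fold change was 4.79 ± 0.41 (SE; edgeR adjusted p = 0.00657).

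Slc6a14 takes up neutral and cationic amino acids with sodium and chloride and is known from leucine uptake by the mouse trophectoderm (chrX:21714896-21742355). It had 6.57, 324 and 59.1 CPM in TE-like cells, against 0.193, 40.4 and 2.67 CPM in ICM-like cells. Replicate 2 was highest in both classes, so the sums overlapped across libraries, while within each library the TE-like sum was higher. Its log2 fold change was 3.97 ± 0.46 (SE; edgeR adjusted p = 0.0132).

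No other amino acid carrier was called. Of 34 tested, 3 rose and 0 fell, 10 were above and 6 below in all 3 libraries, and the median log2 fold change was -0.05, beside -0.01 over all genes. Over all members, 61 were above and 39 below in every library, which is 31% and 19.8%, beside 21% and 22.1% of all genes. The libraries of the classes did not overlap for 19 members above (9.64%, beside 5.53% of all genes) and 15 below (7.61%, beside 5.46%). Slc1a1 had 89.0, 631 and 231 CPM in TE-like cells, against 164, 1028 and 362 CPM in ICM-like cells. It was lower in TE-like cells of each library and just missed the threshold, at a log2 fold change of -0.73 (edgeR adjusted p = 0.0544). It was picked after its values were seen, and exons of 4430402I18Rik overlap it on the other strand. In 4 of 12 alternative settings it was called lower. Slc1a5, a carrier of glutamine and other neutral amino acids, had 14.0, 0.663 and 5.99 CPM in TE-like cells, against 16.4, 20.7 and 16.3 CPM in ICM-like cells. These sums did not overlap, yet the log2 fold change of -1.93 ± 1.0 (SE) was not called (edgeR adjusted p = 0.400).

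The heavy chain Slc3a2, which escorts several amino acid exchangers to the membrane, had 301, 339 and 199.6 CPM in TE-like cells, against 259.5, 406 and 250.1 CPM in ICM-like cells, and was above in 1 library and below in 2. Its partner Slc7a5, an exchanger of large neutral amino acids, had a log2 fold change of -0.78 and was not called. Slc6a9, which carries glycine and is known for volume control in the early mouse embryo, had 24.2, 0.331 and 1.13 CPM in TE-like cells, against 59.9, 4.64 and 0.169 CPM in ICM-like cells. Replicate 1 held most of its counts in both classes. The creatine carrier Slc6a8 (log2 fold change 0.33) and the glutamine carrier Slc38a2 (2.01 ± 1.67, SE) were not called.

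**Figure D2:**
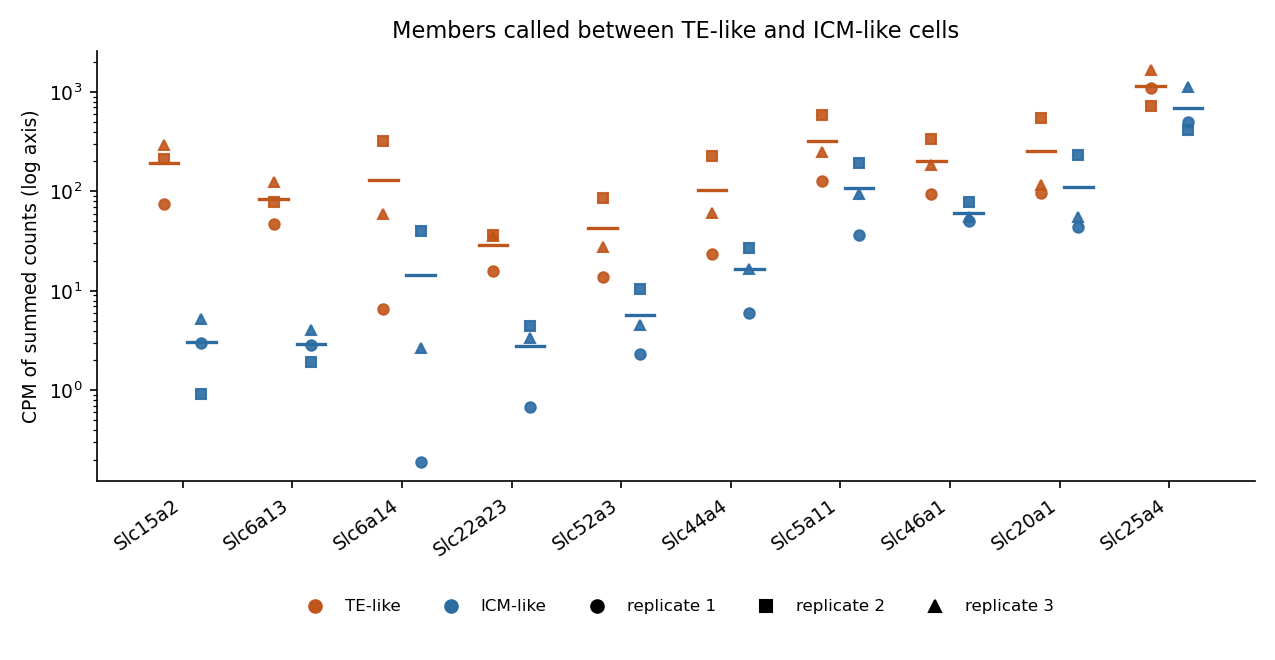
CPM of summed counts (log axis) of the 10 called members in TE-like (orange) and ICM-like (blue) cells; each symbol is 1 library and bars are means. In each library the TE-like symbol is above the ICM-like one, as for Slc15a2 at 74.4 against 2.99 CPM in replicate 1.

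Carriers of vitamins, nucleosides, lipids and organic ions gave 4 of the 10 calls. Slc22a23, an organic ion family member whose substrate is not established (chr13:34179158-34345182), had 16, 36.4 and 35.4 CPM in TE-like cells, against 0.674, 4.46 and 3.34 CPM in ICM-like cells. Slc52a3, which imports riboflavin (chr2:151996511-152009258), had 13.9, 85.5 and 27.9 CPM in TE-like cells, against 2.31, 10.4 and 4.57 CPM in ICM-like cells. Neither overlapped between classes, and the log2 fold changes were 3.62 ± 0.54 and 2.77 ± 0.38 (SE; edgeR adjusted p = 0.0267 and 0.0213).

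Slc44a4, of the choline transporter-like family (chr17:34914466-34930436), had 23.8, 227 and 60.1 CPM in TE-like cells, against 6.07, 26.7 and 16.8 CPM in ICM-like cells. Slc46a1, the proton-coupled folate carrier (chr11:78465697-78472059), had 94.0, 333 and 184 CPM in TE-like cells, against 50.3, 78.6 and 55.1 CPM in ICM-like cells. The Slc46a1 sums did not overlap, whereas for Slc44a4 the replicate 2 ICM-like sum passed the replicate 1 TE-like sum. Their log2 fold changes were 2.32 ± 0.35 and 1.6 ± 0.28 (SE; edgeR adjusted p = 0.0280 and 0.0433). The other folate carrier, Slc19a1, had 3.18, 29.0 and 11.4 CPM in TE-like cells, against 25.2, 60.8 and 6.69 CPM in ICM-like cells, and was not called (log2 fold change -1.04 ± 0.77, SE). The nucleoside carrier Slc29a1 was above in all 3 libraries, at a log2 fold change of 1.11, and missed the threshold (edgeR adjusted p = 0.149). Of 38 tested in this group, 15 were above and 4 below in every library, beside 21% and 22.1% of all genes. The group median was 0.22.

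The carnitine carrier Slc22a5 and its neighbour Slc22a21 on chromosome 11, picked after their values were seen, came near the threshold. Slc22a5 had 27.4, 285 and 65.6 CPM in TE-like cells, against 12.1, 8.10 and 4.23 CPM in ICM-like cells (log2 fold change 3.52; edgeR adjusted p = 0.0944). Slc22a21 had 8.43, 62.5 and 13.3 CPM in TE-like cells, against 1.64, 16.6 and 0.550 CPM in ICM-like cells (log2 fold change 2.90; edgeR adjusted p = 0.0972). Both were higher in TE-like cells of every library. Of the alternative settings, 6 of 12 called Slc22a5 higher and 3 of 11 called Slc22a21 higher.

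Among sugar and monocarboxylate carriers, Slc5a11, which takes up myo-inositol with sodium (chr7:123214780-123273253), rose alone of 20. It had 126, 593 and 250.1 CPM in TE-like cells, against 36.8, 192 and 94.1 CPM in ICM-like cells. The TE-like sum was higher in each library although replicates overlapped, with a log2 fold change of 1.62 ± 0.17 (SE; edgeR adjusted p = 0.00967). The lactate and pyruvate carrier Slc16a1 had 13.4, 55.6 and 33.3 CPM in TE-like cells, against 6.64, 28.7 and 33.9 CPM in ICM-like cells, and was not called. The glucose carrier Slc2a8 had 114, 120.3 and 40.4 CPM in TE-like cells, against 159.9, 171 and 100.4 CPM in ICM-like cells; it was lower in each library and was not called (log2 fold change -0.75; edgeR adjusted p = 0.191). The group median was -0.17, with 5 above and 6 below in all libraries, beside 21% and 22.1% of all genes.

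Of 29 carriers of inorganic ions and protons, 5 were above and 9 below in every library, beside 21% and 22.1% of all genes. Their median log2 fold change was -0.12. Only Slc20a1, which imports phosphate with sodium (chr2:129198764-129211616), was called. It had 95.8, 544 and 117 CPM in TE-like cells, against 43.5, 232 and 54.9 CPM in ICM-like cells. Replicate 2 was highest in both classes, and the log2 fold change was 1.17 ± 0.17 (SE; edgeR adjusted p = 0.0257). Exons of 9830144P21Rik and Gm4430 overlap it on the other strand, and since no source used here gives the strand setting, their reads cannot be told apart. A second phosphate carrier, Slc34a2, had 29.6, 218 and 83.7 CPM in TE-like cells, against 15.9, 77.9 and 35.3 CPM in ICM-like cells (log2 fold change 1.23; edgeR adjusted p = 0.0705). The sodium, potassium and chloride carrier Slc12a2 had a log2 fold change of -0.75 and was not called. Slc4a5, a sodium bicarbonate carrier picked after its values were seen, had 23.8, 12.7 and 8.46 CPM in TE-like cells, against 70.1, 72.2 and 27.8 CPM in ICM-like cells. Its sums did not overlap and it missed the threshold (log2 fold change -1.90, edgeR adjusted p = 0.0542). It was called lower in 5 of 12 alternative settings.

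Of 33 mitochondrial carriers, 9 were above and 8 below in every library, beside 21% and 22.1% of all genes. Their median log2 fold change was 0.17. Only Slc25a4, an ADP/ATP exchanger like Slc25a5 (chr8:46206797-46211284), was called. It had 1087, 730.4 and 1651 CPM in TE-like cells, against 499, 417 and 1134 CPM in ICM-like cells. It was higher in TE-like cells of each library, with overlap between libraries, at a log2 fold change of 0.84 ± 0.14 (SE; edgeR adjusted p = 0.0378). Slc25a5 had 2358, 868 and 1875 CPM in TE-like cells, against 1916, 825 and 1355 CPM in ICM-like cells, and was not called (log2 fold change 0.30 ± 0.12, SE). Slc25a13, an exchanger of aspartate and glutamate picked after its values were seen, had 35.5, 136 and 41 CPM in TE-like cells, against 66.3, 364 and 99.4 CPM in ICM-like cells. It was lower in TE-like cells of each library and lay nearest to a call downward (log2 fold change -1.18, edgeR adjusted p = 0.0524). In 8 of 12 alternative settings it was called lower.

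No metal carrier and no member of the nucleotide sugar family was called. Of 23 metal carriers, 11 were above and 3 below in all libraries, beside 21% and 22.1% of all genes. Their median log2 fold change was 0.51, beside -0.01 over all genes. The zinc exporter Slc30a1 had 15.1, 15.4 and 33.5 CPM in TE-like cells, against 7.70, 5.46 and 18.0 CPM in ICM-like cells, and was not called (log2 fold change 1.14 ± 0.43, SE). The zinc importer Slc39a1 (0.76) and the iron importer Slc11a2 (0.61) were above in each library too. The 20 members of the nucleotide sugar family had a median of 0.05, with 6 above and 3 below, and Slc35b1 had a log2 fold change of 0.44. Of 24 carriers named for a known role, Slc7a11, Slc16a3 and Slc40a1 were below the level cutoff, at 0.0478, 0.747 and 0.0498 CPM.

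**Figure D3:**
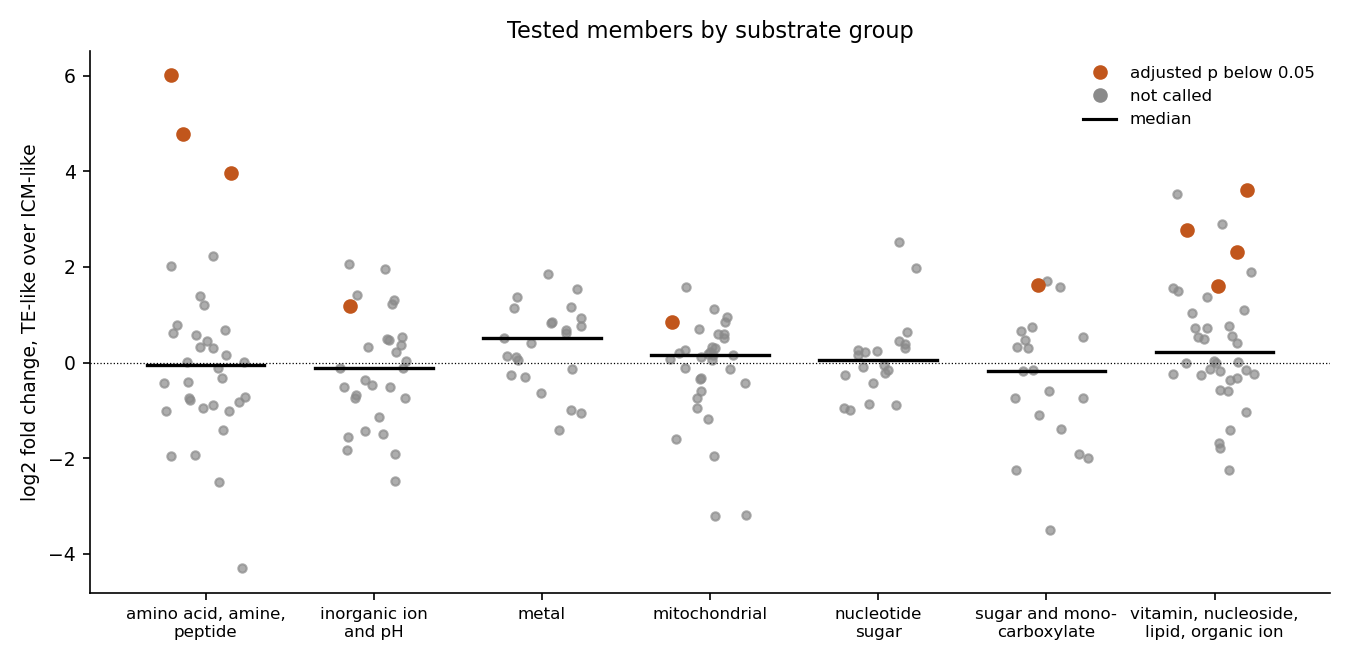
Fold change on the log2 scale between TE-like and ICM-like cells, positive where TE-like is higher, of the 197 tested members by substrate group; orange points were called, grey ones were not, and black lines are group medians. Medians lie between -0.17 and 0.51, with Slc15a2 highest at 6.01.

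**Figure D4:**
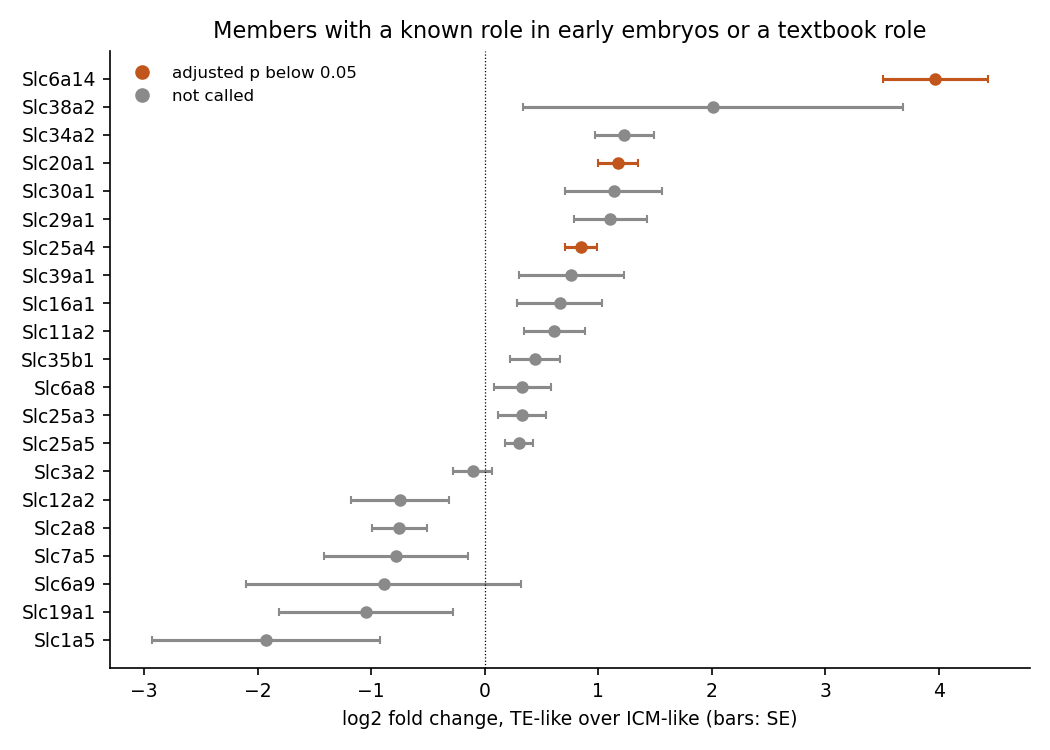
Fold change on the log2 scale between TE-like and ICM-like cells, positive where TE-like is higher, with SE bars, of the 21 members named for a known role. Slc6a14, Slc20a1 and Slc25a4 (orange) were called, and Slc1a5 is lowest at -1.93.

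In single cells, at least 1 count of Slc15a2 was found in 92.1% of TE-like cells and 43.4% of ICM-like cells, as means over libraries. With cells thinned to 20000 counts, which left out 1 shallower ICM-like cell of replicate 1 and no TE-like cell, the shares were 71.0% and 6.07%. Slc6a13 was found in 79.1% of TE-like cells and 24.4% of ICM-like cells, and after thinning in 58.8% and 1.96%. Slc6a14 was found in 73.9% of TE-like cells and 20.6% of ICM-like cells, and after thinning in 50.1% and 10.4%. The median cell had 125 CPM of Slc15a2 in the TE-like class and 0 in the ICM-like class. Median totals per cell were 320633, 538926 and 958307 in TE-like cells, against 283396, 375068 and 618378 in ICM-like cells.

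**Figure D5:**
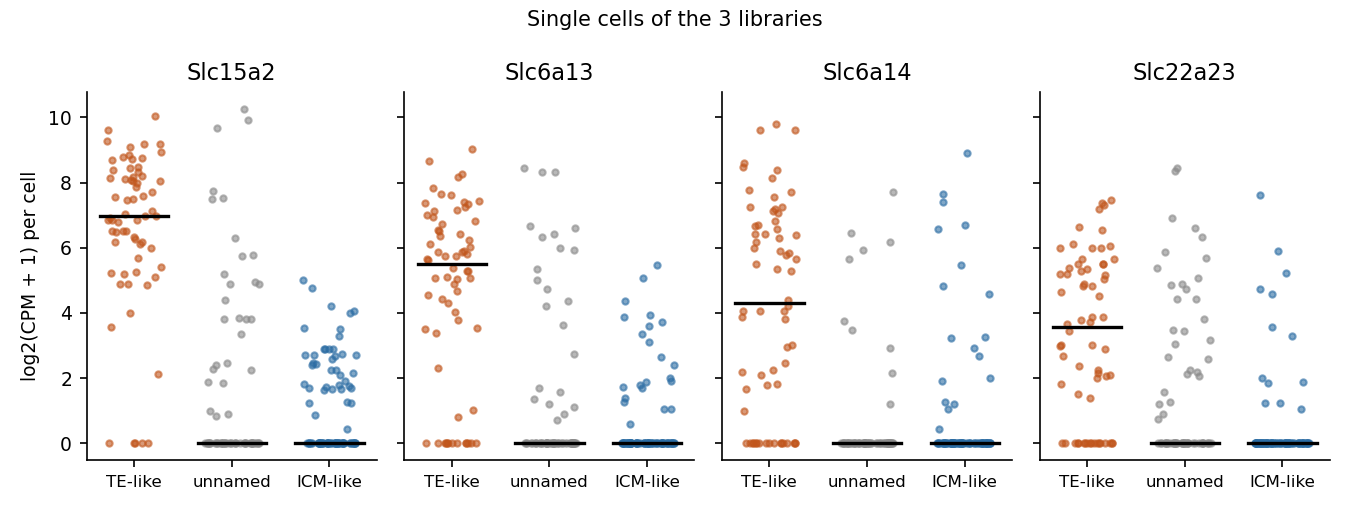
Log2(CPM + 1) in each kept cell for 4 called members, by class, with medians as black lines. For Slc15a2 the median TE-like cell had 125 CPM, while the median of the unnamed and of the ICM-like cells was 0.

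Markers of other cell types moved in part with the classes. The 5 oviduct markers summed to 88.7, 47.5 and 161 CPM in TE-like cells, against 23.1, 33.9 and 51.0 CPM in ICM-like cells; 1 of 5, Wfdc2, was higher in every library and made up most of the sum. The 7 cumulus markers summed to between 10.7 and 60.8 CPM in TE-like cells and between 16.8 and 124 CPM in ICM-like cells, with Inha, Inhba and Ptx3 at 0. Most of this was Amhr2, at 55.9, 6.35 and 29.1 CPM in TE-like cells, against 122, 14.2 and 55.2 CPM in ICM-like cells. Fshr, at low level, was higher in TE-like cells of every library. In unnamed cells the 7 cumulus markers summed to 678, 14.6 and 6.08 CPM in replicates 1, 2 and 3. The 7 oocyte markers summed to 388, 6.89 and 23.1 CPM in unnamed cells. They summed to 23.6, 9.69 and 7.71 CPM in TE-like cells, against 74.5, 8.91 and 19.8 CPM in ICM-like cells. The 20 primitive endoderm markers summed to 1038, 4158 and 2020 CPM in TE-like cells, against 936, 1720 and 1078 CPM in ICM-like cells, but only Dab2 and Lrp2 were higher in TE-like cells of every library and 10 of the 20 were lower. Without Lrp2 they summed to 668, 2520.0 and 1021 CPM in TE-like cells, against 905, 1588 and 995 CPM in ICM-like cells. Of what was left, Dab2 made up 302, 2169 and 709 CPM in TE-like cells, against 22.1, 91.0 and 69.8 CPM in ICM-like cells. The part of these other markers and of depth in the calls was not tested, beyond the thinning of cells to equal counts. There, 9 of the 10 called members were called again and Slc52a3 was not tested. The calls depended on the libraries: 17 members rose, the 10 among them, and 7 fell without replicate 1, 2 (Slc15a2 and Slc6a13) rose and 0 fell without replicate 2, and 0 rose or fell without replicate 3 or with no replicate block. With all libraries and the settings given above, edgeR called 0 members lower. With no low-count filter, other clusters, thinned cells or no cells of high total, 3 to 5 fell, Slc25a13 among them each time. In these settings, in that order, 199, 198, 103 and 196 members were tested. Over all genes tested, 139 of 17057, 104 of 12428, 187 of 6095 and 175 of 11796 were lower. At an unadjusted edgeR p under 0.05, 37 members were higher (18.8%, beside 9.07% of all genes) and 18 lower (9.14%, beside 7.62%), and DESeq2 called 14 lower and limma 13. With DESeq2's size factors in edgeR, 10 of 197 members rose and 2 fell, beside 233 and 86 of 12141 genes. An unplanned look compared mean CPM within sets of 32 barcodes, in the 6 sets with at least 2 cells of each class. Each of the 10 called members was higher in TE-like cells of all 6 sets. The cells of these sets also made the calls, so the sets add no separate support. The share over all genes was not computed. The part of the sets in the calls was not tested.

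Proteins that hold, drive or regulate carriers were read from a list of 20 genes, of which 19 were tested. Of these, 2 rose and 0 fell, beside 1.82% and 0.601% of all genes tested. Pdzk1, a scaffold that binds carrier tails under the apical membrane, had 47.0, 300.1 and 83.1 CPM in TE-like cells, against 5.39, 8.46 and 3.68 CPM in ICM-like cells (log2 fold change 4.30; edgeR adjusted p = 0.0106). Atp1b1, a subunit of the sodium pump, had 128, 88.9 and 64.8 CPM in TE-like cells, against 36.9, 17.7 and 27.3 CPM in ICM-like cells (log2 fold change 1.81; edgeR adjusted p = 0.0416). Neither overlapped between classes. The list's median was 0.22, and Bsg, the chaperone of monocarboxylate carriers, was listed at 0 in every sum.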

How the data were processed

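Gene by barcode counts of 3 single-cell libraries were deposited as raw whole-number counts by the authors. Per the submitters' processing notes, CASAVA 1.8, HISAT2, HTSeq and mm10 were used. The sources used here do not give the annotation, the strand setting or whether molecular identifiers were collapsed, so a count may be a read or a molecule. Library totals were 30573711, 27610866 and 54444536 counts, of which barcodes with 2000 or more genes held 99.8%, 99.7% and 99.7%. CPM were computed from these counts.

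Cells were clustered on log2(CPM + 1) of 54 markers, centred within library (scanpy 1.11.5, 10 principal components, 15 neighbours, Leiden resolution 0.5). A cluster was named where its marker score exceeded that of the other cells by 0.25, with checks of leading genes and depth, a rule completed after the clusters were seen; a tie passed. No doublet caller was run, since cells were picked by hand. The classes were drawn on the cells then tested, so p-values leave out that uncertainty.

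Counts were summed per library and class, filtered with filterByExpr, scaled by TMM and tested with edgeR 4.0.16, with the library as a block because both classes come from the same libraries. Named members were every called one, a list of 24 with known roles and those at the cutoff; 1 further listed carrier is not reported here. The members and lists were chosen with earlier results of these data known. Alternatives used DESeq2 1.42.0, limma 3.58.1, other filters, clusters and cells, and each library left out. Gene positions are from GENCODE on mm10.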

Additional observations from a re-analysis of the deposited data

Results flagged for a closer look

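Barcodes left out for having fewer than 2000 genes with a count still held counts of the members, although no comparison used them. There were 443 such counts in replicate 1, 919 in replicate 2 and 1581 in replicate 3, out of 47251, 92365 and 180100 counts in those barcodes. That was 0.938%, 0.995% and 0.878% of the counts in left-out barcodes of replicates 1, 2 and 3, beside 1.21%, 1.40% and 1.02% of those in kept cells. They are listed only because these barcodes entered no comparison and held more than the 3 counts that a count of 0 allows.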

How the results depend on the processing

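All 10 called members kept their direction in every alternative in which they were tested, and Slc52a3 was not tested after thinning. Called members higher in TE-like cells numbered 30 with the DESeq2 test, 51 with limma on mean log2 CPM, where the median of all genes moved to 0.17, and 0 with no replicate block; they ran between 0 and 17 with 1 library left out. Members lower numbered 2 with DESeq2 size factors, 14 with the DESeq2 test, 3 with no low-count filter, 4 at Leiden resolution 1.0, 4 after thinning, 5 without cells of high total and 13 with limma, and ran between 0 and 7 with 1 library left out. Over all genes 221 were higher and 73 lower, against 791 and 637 with DESeq2, 1619 and 444 with limma, and 0 and 0 with no replicate block. Leaving out libraries 1, 2 and 3 in turn gave 389, 36 and 37 higher and 221, 9 and 7 lower. At resolution 1.0, where clusters were named by score alone, Slc25a4 was not called (edgeR adjusted p = 0.0538). Partners higher numbered 0 with no replicate block, 4 after thinning and 7 with limma, and between 0 and 2 with 1 library left out. Over all genes, 317 of 6095 tested were higher after thinning and 1619 of 12141 with limma. Genes lower numbered 86 of 12141 with DESeq2 size factors, 139 of 17057 with no low-count filter and 104 of 12428 at resolution 1.0. They numbered 187 of 6095 after thinning and 175 of 11796 without cells of high total.

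After thinning only 103 members were tested, beside 197 before it, so medians after thinning cover fewer members. The median log2 fold change of all members was 0.35 after thinning, 0.22 without cells of high total and 0.33 with limma. It was 0.30 after thinning and 0.39 with limma for amino acid carriers, 0.16 after thinning and -0.46 at resolution 1.0 for ion carriers, 0.56 after thinning for the nucleotide sugar family, -0.97 after thinning for sugar carriers, -0.0048 with no replicate block for mitochondrial carriers, and 0.45 with no low-count filter and 0.46 with limma for vitamin carriers. With 1 library left out, medians ran between -0.061 and 0.29 for amino acid carriers, -0.40 and 0.058 for ion carriers, -0.0083 and 0.18 for mitochondrial carriers, -0.11 and 0.29 for the nucleotide sugar family, and 0.14 and 0.41 for vitamin carriers. The log2 fold change of Slc6a9 then ran between -2.26 and 0.28. It turned to 0.28 without replicate 2 and 1.57 without cells of high total, and Slc3a2 to 0.15 without cells of high total and 0.42 with limma. The causes were not tested. ICM-like cells clustered again on epiblast and primitive endoderm markers gave 62 and 28 cells that could not be named, so that planned comparison and its alternatives were not run. With 3 libraries and 16 to 34 cells per class and library, members of low level rest on few counts.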

Other observations

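The largest unnamed cluster, of 12, 24 and 14 cells in replicates 1, 2 and 3, was led by Lrp2 and Gata3. Its Slc5a11 level was 138, 508 and 283 CPM, above the ICM-like sums of 36.8, 192 and 94.1 CPM in each library. Its Slc20a1 level was 73.3, 428 and 127 CPM, also above the ICM-like sums of 43.5, 232 and 54.9 CPM. Slc15a2 was at 3.67, 11.2 and 69.1 CPM there, below the TE-like sums of 74.4, 211 and 295 CPM. These cells were shallow, and no test was made of them.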
